A study of Mus musculus with 12 samples.

Results

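The 8 genes described here are the 3 leucine-rich repeat G protein-coupled receptors Lgr4, Lgr5 and Lgr6, the 2 membrane ubiquitin ligases Znrf3 and Rnf43, and the 3 leucine-rich repeat and immunoglobulin-like domain proteins Lrig1, Lrig2 and Lrig3. They were chosen by name, and every non-control probe of the array whose accession mapped to one of the 8 symbols was taken. This gave 11 of 41174 probes: 3 for Lgr4, 2 for Lrig2 and 1 for each of the other genes. All 11 passed the filter on dim probes, and the 8 genes stood among 31064 genes tested.

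Expression was measured in colonies grown in culture from mouse dental epithelial stem cells of the incisor. Each of 12 arrays held the RNA of 1 colony, amplified over the whole transcriptome and labelled with Cy3. There were 4 wild-type colonies (replicates 1, 3, 4 and 5), 4 Bmi1 null colonies (Bmi1-) and 4 double null colonies (Bmi1-;Ink4a/Arf-), the last lacking Bmi1 and the Ink4a/Arf locus. The genetic background was mixed in all 3 genotypes. How many animals gave the colonies, and their age, are not stated in the sources used here; p-values cover only the spread between colonies. A single colony carries the state of its founder cell and of culture, and is no tissue sample.

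R-spondins are secreted proteins that bind Lgr4, Lgr5 and Lgr6. The bound complex clears Znrf3 and Rnf43 from the cell surface; these ligases otherwise send Frizzled, the Wnt receptor, to degradation, so R-spondin with an Lgr receptor raises the sensitivity of a cell to Wnt. Lgr5 marks stem cells of the intestine and hair follicle and has been used as a marker in the incisor cervical loop. Lrig1 restrains ErbB receptors and other receptor tyrosine kinases and marks stem cells in skin and gut, while Lrig2 and Lrig3 are its paralogs. Bmi1 is a subunit of Polycomb repressive complex 1, and Ink4a/Arf, the Cdkn2a gene, is a target that it keeps silent.

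Promoter windows from RefSeq (GRCm38.p6) were at hand for 6 of the 8 genes, in 7 windows of 300 bases: Lgr4, Lgr6, Lrig1, Lrig2, Lrig3 and Rnf43, the last with 2. The 150 bases before the start site used for the window are printed, 5′ to 3′ on the strand of the gene, with every CpG in capitals. The annotated gene of Lrig1 runs to 94700298, so all its printed bases lie within it. That of Lgr6 runs to 135105374, so part of its printed bases lie within it. Lgr4 and Lrig1 are shown because both were higher in the double null than the Bmi1 null, Lrig3 because it was higher in both mutants than in wild type, and Lgr6 because it was lower in both.
Lgr4, chr2:109917497-109917646, plus strand: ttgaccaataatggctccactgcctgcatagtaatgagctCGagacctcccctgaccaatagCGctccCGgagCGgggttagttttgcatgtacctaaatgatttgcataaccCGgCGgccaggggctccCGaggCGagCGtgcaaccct
Lrig1, chr6:94700146-94700295, minus strand: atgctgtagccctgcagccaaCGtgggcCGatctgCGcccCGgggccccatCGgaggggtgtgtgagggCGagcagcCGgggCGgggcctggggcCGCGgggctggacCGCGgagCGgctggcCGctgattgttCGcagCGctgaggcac
Lrig3, chr10:125966069-125966218, plus strand: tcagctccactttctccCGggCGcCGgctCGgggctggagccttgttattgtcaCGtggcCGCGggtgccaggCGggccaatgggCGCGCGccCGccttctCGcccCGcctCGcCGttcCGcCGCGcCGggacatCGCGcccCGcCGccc
Lgr6, chr1:135105277-135105426, minus strand: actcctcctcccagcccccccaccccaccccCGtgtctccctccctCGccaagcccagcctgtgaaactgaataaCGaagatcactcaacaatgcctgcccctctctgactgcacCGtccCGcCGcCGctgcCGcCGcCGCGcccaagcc

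The whole windows held 18 CpG at Lgr4, 35 at Lrig1, 36 at Lrig3, 24 at Lgr6, 25 at Lrig2, and 10 and 3 at the windows of Rnf43. The median over all 32851 windows of the table was 7 and the 75th percentile 20. Lrig1 and Lrig3 thus had more CpG than 93.0% and 93.8% of windows. The letters CTTTG followed by AA, AT, TA or TT, which the TCF/LEF partners of β-catenin bind, were searched on both strands and stood in 0 of the 7 windows, against 16.9% of all windows. The letters CCAAT, searched after the sequences had been seen, stood in 4 of 7 windows against 37.4% of all, with 2 matches each at Lgr4 and Lrig2 and 1 each at Lrig1 and Lrig3. TATAA stood in 0 of 7 windows against 24.9%. A match is only a run of letters in this window.

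Levels are log2 processed signals after subtraction of the 75th percentile of that array, so 0 is the signal of its 75th percentile; they compare arrays for 1 probe and not 1 probe with another. The targeted genes ran in the direction that the labels give. Bmi1 read -0.27 ± 0.46 (SD, n = 4) in wild type, and the means were -2.36 ± 0.15 for Bmi1 null and -2.52 ± 0.21 for double null colonies. Its probe was still well above background on 4 arrays of each mutant. Cdkn2a was well above background on 0, 4 and 0 arrays of wild type, Bmi1 null and double null. Markers of dental epithelium were well above background on all arrays for 10 of 10 genes in every genotype, among them Krt14 and Cdh1. Most of them were higher in both mutants than in wild type. Signals spread less on the wild-type arrays: their interquartile range of log2 signal was 2.56 ± 0.06 (SD, n = 4), against 4.52 ± 0.18 for Bmi1 null and 4.66 ± 0.42 for double null arrays, and 94.6%, 82.5% and 80.1% of probes were well above background. The median gene lay 1.24 lower on the log2 scale for Bmi1 null and 1.39 lower for double null colonies than for wild type. Changes are given on this scale. Centring every array on its median gene instead (the centred scale) moved each difference from wild type upward, and centred values of the 8 genes and of list counts are given beside the first ones. Between the mutants the median gene differed by -0.060. A gene was called at a limma adjusted p under 0.05, with Benjamini-Hochberg adjustment over all genes tested.

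Lgr5 fell in Bmi1 null colonies and stood higher again in 3 of 4 double null colonies. Its probe, A_51_P218091, read -1.76, -2.09, -1.95 and -1.85 in wild-type replicates 1, 3, 4 and 5. It read -5.07, -4.31, -4.34 and -5.05 in Bmi1 null replicates 1 to 4, the last of these not well above background. The double null replicates 1 to 4 gave -2.14, -2.14, -2.51 and -4.28. The Bmi1 null colonies all lay below the wild type, double null replicate 4 lay just above the highest Bmi1 null colony, and no double null colony reached the lowest wild-type one. In these bulk samples fewer cells of a type and less RNA per cell cannot be told apart. Lgr5 was 6.86-fold lower in Bmi1 null colonies than in the wild type (log2 difference -2.78 ± 0.41, SE; limma adjusted p = 4.3e-05), and -1.65 on the centred scale (limma adjusted p = 0.00089). It was 3.8-fold higher in double null colonies than in Bmi1 null ones (1.93 ± 0.41, SE; limma adjusted p = 0.015). The double null colonies differed from wild type by -0.85, with a 95% interval of -1.79 to 0.08 (limma adjusted p = 0.068), and by 0.39 on the centred scale (0.33). Without double null replicate 1 or replicate 2 that difference passed the test, at -1.06 for either. The authors' processed values gave smaller changes that still passed, -0.49 for Bmi1 null against wild type and 0.98 between the mutants, and turned the sign of double null against wild type, to 0.49 (limma adjusted p = 0.046). With normexp background the mutants differed by 1.15 (limma adjusted p = 0.063), and with slide as a block by 1.60 (limma adjusted p = 0.21).

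The brightest probe of Lgr4 was higher in double null colonies than in either other genotype, and its other probes ran differently. A_52_P276727 read -1.05, -0.20, -0.91 and -0.65 in wild-type replicates 1, 3, 4 and 5 and -0.38, -1.19, -0.66 and -0.64 in Bmi1 null replicates 1 to 4. Double null replicates 1 to 4 gave 0.83, 1.56, 1.60 and 0.55. The double null colonies lay above all 8 others, while wild type and Bmi1 null overlapped. Double null exceeded Bmi1 null colonies by 1.85 ± 0.29 (SE; 3.62-fold; limma adjusted p = 0.0031) and wild type by 1.84 ± 0.29 (limma adjusted p = 6.6e-05; 3.09 on the centred scale). With slide as a block the first of these no longer passed (limma adjusted p = 0.071). Bmi1 null and wild type differed by -0.01, with a 95% interval of -0.67 to 0.64. On the centred scale that last difference was 1.11 and passed the test (limma adjusted p = 0.0061), so its sign depends on the scaling.

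The second Lgr4 probe, A_52_P278566, read -1.83, -1.58, -2.06 and -1.65 in wild-type replicates 1, 3, 4 and 5, and -0.31, -0.21, 0.24 and -0.16 in Bmi1 null replicates 1 to 4. The Bmi1 null colonies all lay above the wild type on this probe, by 1.67 ± 0.35 (SE; limma adjusted p over all probes = 0.00064). In double null replicates 1 to 4 it read 0.21, 1.84, 0.94 and -0.08, which overlapped the Bmi1 null values, and the mutants differed by 0.84 ± 0.35 (SE; limma adjusted p over all probes = 0.17). The dimmest probe, A_51_P442746, had means of -1.63 ± 0.08, -1.83 ± 0.26 and -1.20 ± 0.43 (SD, n = 4) in wild type, Bmi1 null and double null, and passed the test in no comparison. Its difference between the mutants was 0.63 ± 0.22 (SE; limma adjusted p over all probes = 0.11). The 3 probes thus had the same sign between the mutants and different signs between Bmi1 null and wild type. Which transcripts of Lgr4 each probe reads was not analysed here.

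**Figure D1:**
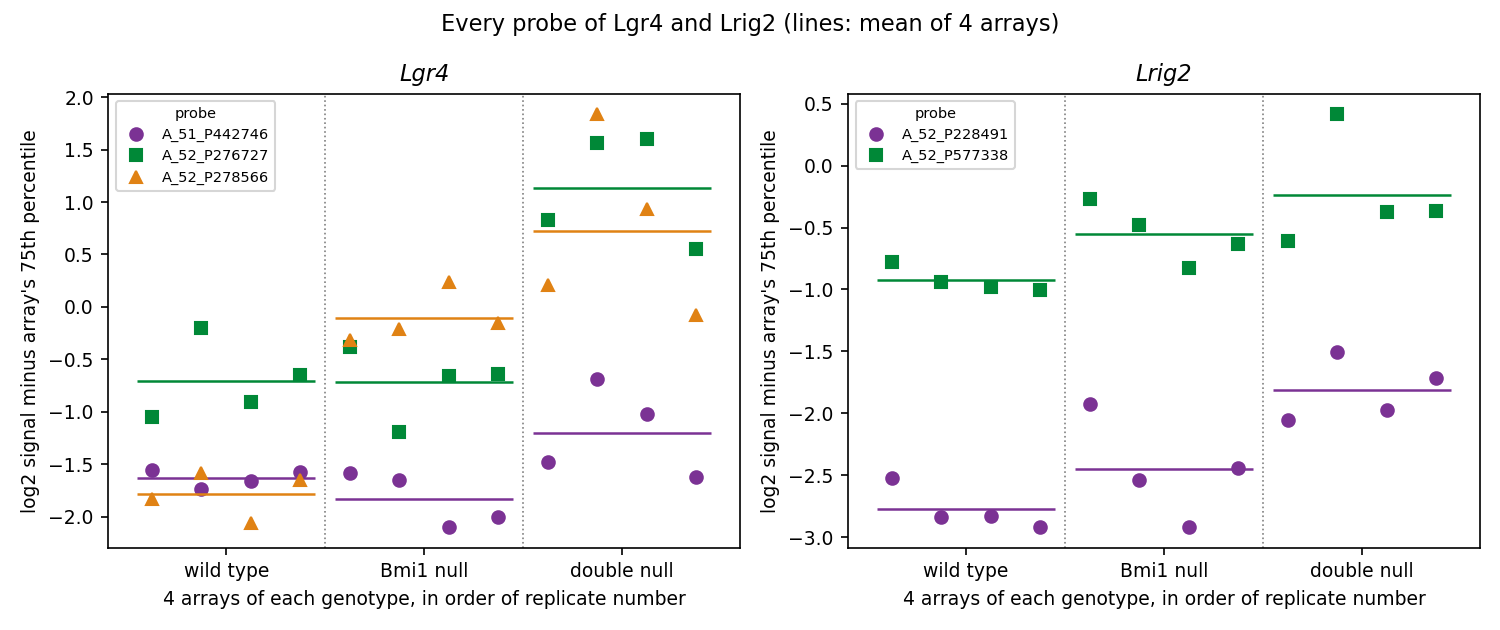
Level of each probe of Lgr4 (left) and Lrig2 (right) on the 12 arrays, as log2 signal on the 75th percentile scale; points are arrays in order of replicate number within a genotype, and lines are means of 4 arrays. The brightest Lgr4 probe stands apart in double null colonies only, whereas A_52_P278566 was higher already in Bmi1 null colonies, by 1.67; both Lrig2 probes have their highest mean in double null colonies.

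Lgr6, the third receptor, was lower in both mutants. Its probe, A_52_P616580, read 0.76, 0.59, 0.85 and 0.46 in wild-type replicates 1, 3, 4 and 5. It read -1.60, -1.17, -1.05 and -0.64 in Bmi1 null replicates 1 to 4 and -1.47, -1.32, -1.22 and -1.15 in double null replicates 1 to 4. Every mutant colony lay below every wild-type colony, and the mutants overlapped. Lgr6 fell by 1.78 ± 0.21 on the log2 scale (SE; 3.44-fold; limma adjusted p = 7.0e-06) in Bmi1 null colonies, and by 1.95 ± 0.21 (3.87-fold; limma adjusted p = 2.9e-06) in double null colonies. On the centred scale the differences were -0.66 and -0.70, both past the test (limma adjusted p = 0.024 and 0.016). The mutants differed by -0.17, with a 95% interval of -0.65 to 0.31 (limma adjusted p = 0.71). The 3 receptors differed in pattern: Lgr5 and Lgr6 were lower in Bmi1 null colonies, and Lgr4 and Lgr5 were higher in double null colonies than in Bmi1 null ones.

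**Figure D2:**
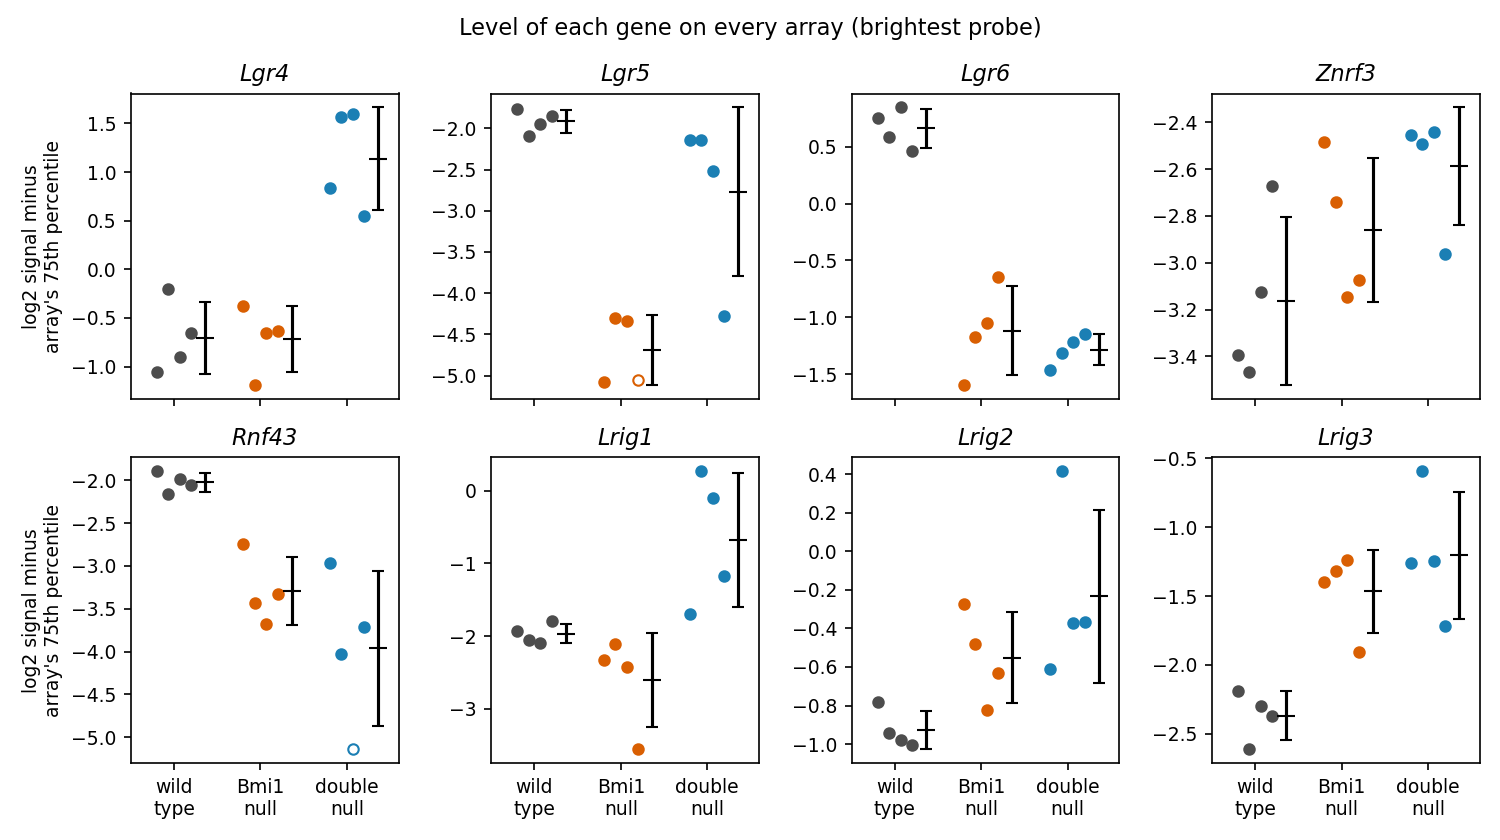
Level of each of the 8 genes on every array (brightest probe), as log2 signal on the 75th percentile scale, with its own axis for each gene; points are colonies in order of replicate number, open points were not well above background, and bars are the mean ± SD of 4 colonies. Lgr4 is set apart in double null colonies, Lgr6 in wild type, and Lgr5 is lowest in Bmi1 null colonies, with 1 double null colony at -4.28.

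Of the ligases that R-spondins remove from the membrane, Rnf43 was lower in both mutants before centring and Znrf3 was higher in double null colonies. Rnf43 (probe A_51_P337101) read -1.89, -2.16, -1.98 and -2.05 in wild-type replicates 1, 3, 4 and 5, and -2.74, -3.43, -3.68 and -3.32 in Bmi1 null replicates 1 to 4. In double null replicates 1 to 4 it read -2.96, -4.03, -5.14 and -3.71, the third not well above background. Every mutant colony lay below the wild type. Rnf43 fell by 1.27 ± 0.37 on the log2 scale (SE; 2.41-fold; limma adjusted p = 0.0066) in Bmi1 null colonies, and by 1.94 ± 0.37 (3.83-fold; limma adjusted p = 0.00033) in double null colonies. Neither call held on the centred scale, where the differences were -0.14 and -0.69 (limma adjusted p = 0.72 and 0.097), nor in the authors' processed values, where they were 0.18 and -0.06.

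Znrf3, the other ligase (probe A_52_P234039), read -3.39, -3.47, -3.13 and -2.67 in wild-type replicates 1, 3, 4 and 5, and -2.49, -2.74, -3.15 and -3.08 in Bmi1 null replicates 1 to 4. Double null replicates 1 to 4 gave -2.45, -2.49, -2.44 and -2.96. All 3 genotypes overlapped. It was higher in double null than in wild-type colonies by 0.58 ± 0.23 (SE; 1.49-fold; limma adjusted p = 0.035), and by 1.83 on the centred scale. The call was lost without any 1 of 6 arrays, wild-type replicate 1, 3 or 4 or double null replicate 1, 2 or 3, at 0.48 to 0.59, and with normexp background, at 0.26. Bmi1 null colonies differed from wild type by 0.30, with a 95% interval of -0.23 to 0.83, and by 1.43 on the centred scale, which passed the test (limma adjusted p = 0.00011). The mutants differed by 0.27 for Znrf3 and by -0.67 for Rnf43, with 95% intervals of -0.26 to 0.80 and -1.51 to 0.18 (limma adjusted p = 0.56 and 0.33).

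The Lrig genes all had their highest mean in double null colonies, and among them only Lrig1 was called between the mutants. Its probe, A_51_P116137, read -1.93, -2.05, -2.09 and -1.80 in wild-type replicates 1, 3, 4 and 5, and -2.33, -2.11, -2.43 and -3.56 in Bmi1 null replicates 1 to 4. In double null replicates 1 to 4 it read -1.70, 0.27, -0.10 and -1.18. All double null colonies lay above the others, with a spread of 0.92 (SD, n = 4) against 0.13 in wild type. Lrig1 was 3.81-fold higher in double null colonies than in Bmi1 null ones (1.93 ± 0.42, SE; limma adjusted p = 0.016) and 2.44-fold higher than in wild type (1.29 ± 0.42, SE; limma adjusted p = 0.011; 2.54 on the centred scale). With slide as a block neither difference passed, at 1.61 and 1.11 (limma adjusted p = 0.13 and 0.089). Bmi1 null and wild type differed by -0.64, with a 95% interval of -1.58 to 0.30 (limma adjusted p = 0.17), and by 0.49 on the centred scale (0.31).

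Lrig3 rose in both mutants. Its probe, A_51_P428134, read -2.19, -2.61, -2.30 and -2.37 in wild-type replicates 1, 3, 4 and 5. It read -1.40, -1.32, -1.24 and -1.91 in Bmi1 null replicates 1 to 4 and -1.26, -0.59, -1.24 and -1.72 in double null replicates 1 to 4. Every mutant colony lay above the wild type. Lrig3 rose by 0.90 ± 0.25 (SE; 1.87-fold; limma adjusted p = 0.0043) in Bmi1 null colonies, and by 1.17 ± 0.25 (2.25-fold; limma adjusted p = 0.00068) in double null colonies, and by 2.03 and 2.41 on the centred scale. With normexp background the Bmi1 null rise was 0.45 and missed the test (limma adjusted p = 0.061). The mutants differed by 0.26, with a 95% interval of -0.29 to 0.82 (limma adjusted p = 0.60).

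Lrig2 showed smaller steps. Its brighter probe, A_52_P577338, read -0.78, -0.94, -0.98 and -1.0 in wild-type replicates 1, 3, 4 and 5, and -0.27, -0.48, -0.83 and -0.63 in Bmi1 null replicates 1 to 4. In double null replicates 1 to 4 it read -0.61, 0.41, -0.37 and -0.37. The double null colonies lay above the wild type, by 0.69 ± 0.23 (SE; 1.62-fold; limma adjusted p = 0.013) and by 1.94 on the centred scale, and Bmi1 null overlapped both. Bmi1 null differed from wild type by 0.37 (95% interval -0.14 to 0.89; limma adjusted p = 0.14), and by 1.5 on the centred scale (limma adjusted p = 0.00016). The mutants differed by 0.32 (95% interval -0.20 to 0.84; limma adjusted p = 0.47). The second probe, A_52_P228491, gave 0.96 ± 0.22 for double null against wild type (SE; limma adjusted p over all probes = 0.0015) and the same signs in the other comparisons.

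Counted over the 8 genes, 1 was called higher and 3 lower in Bmi1 null colonies against wild type, where 83.5% of all genes tested were called, 25.2% higher and 58.3% lower. On the centred scale 4 were higher and 2 lower, where 76.8% of all genes were called, 39.3% higher and 37.6% lower. In double null against wild type 5 were called higher and 2 lower, where 85.4% of all genes were called, 25.7% higher and 59.7% lower. Centred, 5 were higher and 1 lower, where 77.1% of all genes were called, 39.0% higher and 38.1% lower. The groups did not overlap for 5 and 7 of the 8 genes in these comparisons, as for 80.1% and 81.3% of all genes. The median of the 8 genes was -0.33 and 0.64 in these comparisons, beside -1.24 and -1.39 for all genes. Both comparisons share the wild-type arrays.

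Between the mutants 3 of the 8 genes, Lgr4, Lgr5 and Lrig1, were called higher and 0 lower, where 7.43% of all genes were called, 2.81% higher and 4.62% lower. The same 3 were called on the centred scale, where 7.11% of all genes were, 3.55% in each direction. Their groups of 4 arrays did not overlap, as for 13.8% of all genes. The median of the 8 genes was 0.30, beside -0.060 for all genes. The arrays lay on 5 slides: slide 2 held 1 array of each genotype, and slide 3 held 2 double null arrays beside 1 Bmi1 null array. Within slide 2 the double null array exceeded the Bmi1 null array by 2.80 for Lgr4, 1.79 for Lgr5 and 2.01 for Lrig1, and within slide 3 the differences were 1.35, 1.13 and 0.99. With slide as a block the 3 differences were 1.80, 1.60 and 1.61, and 0 of the 3 passed, where 0.869% of all genes were called. In a fit of the 2 mutants alone Lgr4 passed (limma adjusted p = 0.022), and Lgr5 and Lrig1 did not (0.073 and 0.074).

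**Figure D3:**
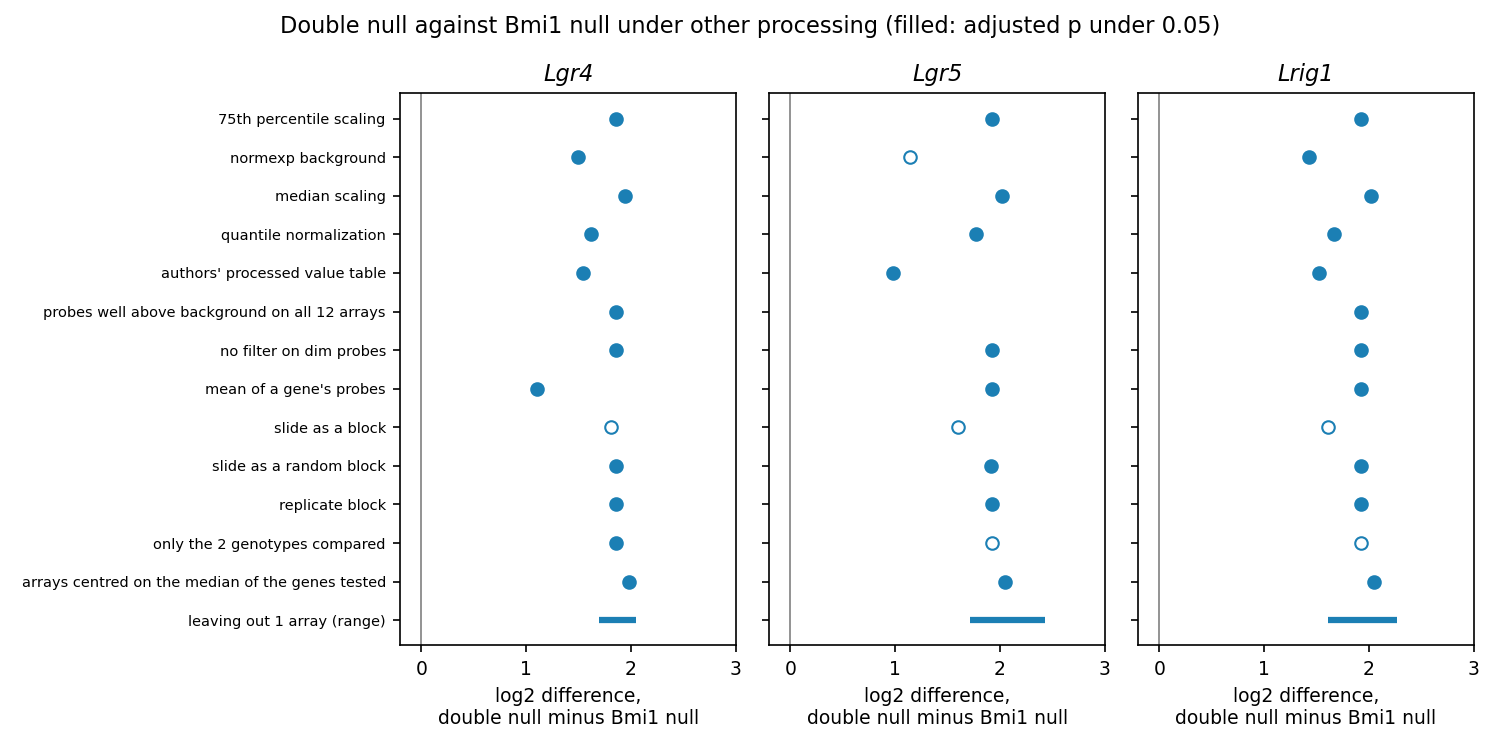
Log2 difference of double null minus Bmi1 null colonies for Lgr4, Lgr5 and Lrig1 under each way of processing the arrays; filled points passed the test at a limma adjusted p under 0.05, and the bar at the bottom is the range when 1 of the 12 arrays was left out. All differences are above 0, from 0.98 to 2.43, and those with slide as a block are open; Lgr5 has no point for probes well above background on all 12 arrays, where its probe was not kept.

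Against wild type, slide 1 held 2 wild-type and 2 Bmi1 null arrays. There the Bmi1 null arrays differed from the wild type by -3.2 for Lgr5, -1.92 for Lgr6, -1.09 for Rnf43 and 0.59 for Lrig3. Within slide 2, with 1 array each, the differences were -2.22, -1.76, -1.27 and 1.29. The signs were those of the pooled values. With slide as a block Lrig2, like Lrig1, no longer passed in double null against wild type, at 0.65 (limma adjusted p = 0.055).

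**Figure D4:**
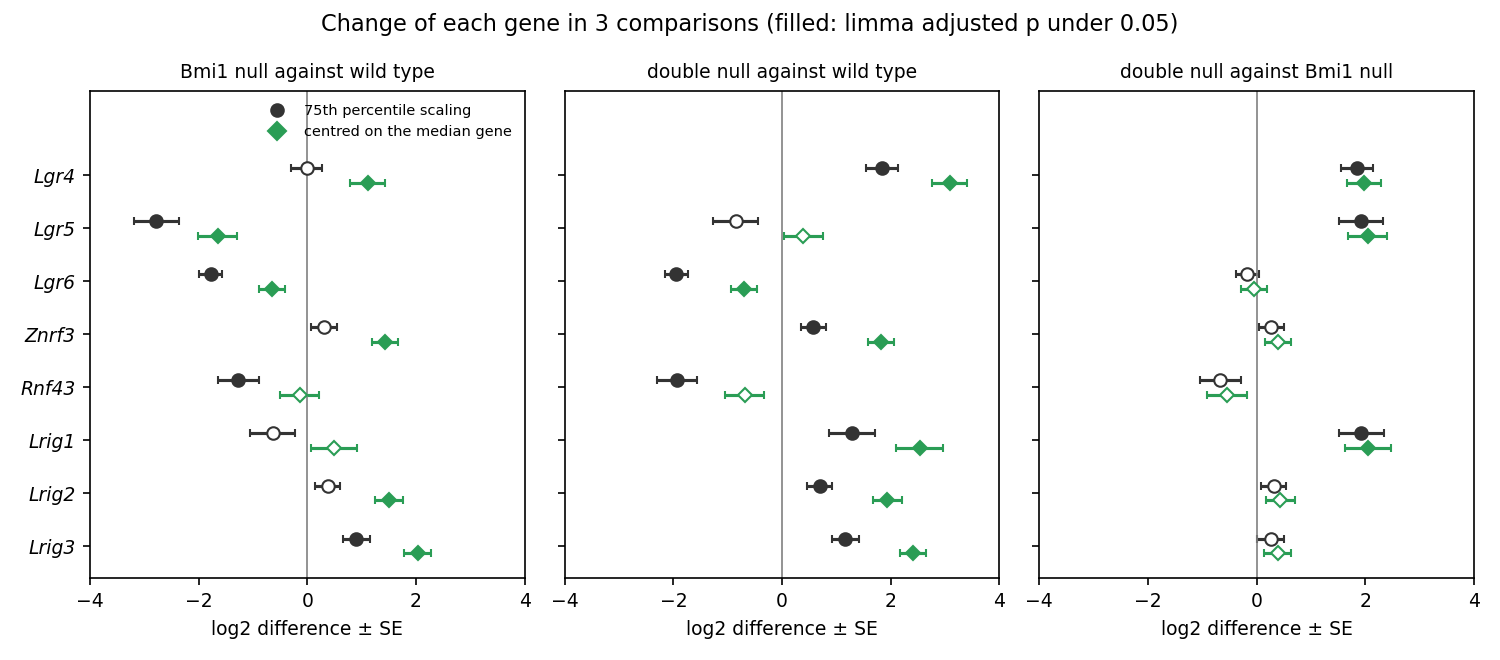
Log2 difference ± SE of each gene in the 3 comparisons, with arrays scaled to their 75th percentile (circles) or centred on their median gene (diamonds); filled symbols passed the test at a limma adjusted p under 0.05. Centring moves the 2 comparisons with wild type upward and leaves that between the mutants nearly in place; Lgr4, Lgr5 and Lrig1 are filled there under both scalings, at 1.85 to 2.05.

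The ligands of the Lgr receptors were dim in the mutant colonies. All 4 R-spondins were called lower in both mutants than in wild type, on both scales. Rspo2 and Rspo3 passed the filter on dim probes through the wild type alone. The filter thus favoured a lower mutant level for these genes, and their calls carry little weight. Of all genes 58.3% and 59.7% were called lower before centring, and 37.6% and 38.1% after. Rspo1 had means of -2.58 ± 0.37, -5.21 ± 0.50 and -4.83 ± 0.63 (SD, n = 4) in wild type, Bmi1 null and double null. Rspo4 had means of -1.94 ± 0.44, -4.40 ± 0.64 and -4.37 ± 0.77 in the same order. Rspo2 was well above background on 4 wild-type arrays but on 0 of either mutant. Its level was at least 2.83-fold lower in Bmi1 null colonies, and for the double null the bound was at least 2.55-fold. Such a bound takes, on each array of the dim genotype, the higher of the probe's own level and the lowest level well above background. It applies to levels before centring and is no minimum under other processing. Rspo3, well above background on 3 wild-type arrays and 0 Bmi1 null arrays, was at least 3.41-fold lower in Bmi1 null colonies. The R-spondin calls did not hold in the authors' processed values, where 0 of 4 passed the limma test in either comparison. There 71.7% and 72.3% of all genes passed, and the differences of Rspo2 and Rspo3 lay between -0.13 and 0.04. The cause was not tested. Between the mutants 0 of 4 passed, also at an unadjusted p under 0.05 in limma.

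The Wnt receptors were the group around the Lgr genes with the most calls between the mutants. The Frizzled and co-receptor genes (14 tested of 15) had 4 called higher and 0 lower in double null against Bmi1 null colonies. The shares over all genes were 2.81% higher and 4.62% lower. At an unadjusted p under 0.05 in limma 6 were higher and 1 lower. No share over all genes was taken at the unadjusted limit, here or for the other lists. Fzd4 was higher by 2.74 ± 0.45 (SE; limma adjusted p = 0.0042), Fzd1 by 1.22 ± 0.21 and Fzd7 by 1.08 ± 0.22. The fourth, Fzd2, outside the rule for naming and named because the count is small, was higher by 0.73 ± 0.20. Ctnnb1, the β-catenin that carries the Wnt signal, was the 1 gene of 11 tested transducers and destruction complex parts that passed, at 0.79 ± 0.20. Of 8 tested nuclear partners of β-catenin, Tcf7 and Tcf7l2, transcription factors that bind it, were higher by 0.94 ± 0.24 and 0.91 ± 0.21; Tcf7 did not pass in the authors' processed values (limma adjusted p = 0.096).

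Of 14 tested β-catenin targets, such as Myc, Dkk1 and Nkd1, 0 passed between the mutants in limma, where 7.43% of all genes did. A list this short could have 0 calls at that share. At an unadjusted p under 0.05 in limma 0 were higher and 4 lower, and the median difference of the list was -0.12. Dkk1 was well above background on 3 Bmi1 null and 2 double null arrays, and Nkd1 on 3 of each. Axin2, a target widely used as a Wnt readout, was well above background on at most 2 arrays of a genotype and was not tested. Over the 74 context genes tested, 7 were called higher and 2 lower between the mutants. The 7 fell to 4 without Bmi1 null replicate 2 and to 3 without Bmi1 null replicate 4 or double null replicate 3. The 2 became 1 without Bmi1 null replicate 4 or double null replicate 2, and 4 without double null replicate 4. With slide as a block 0 of the 74 passed.

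**Figure D5:**
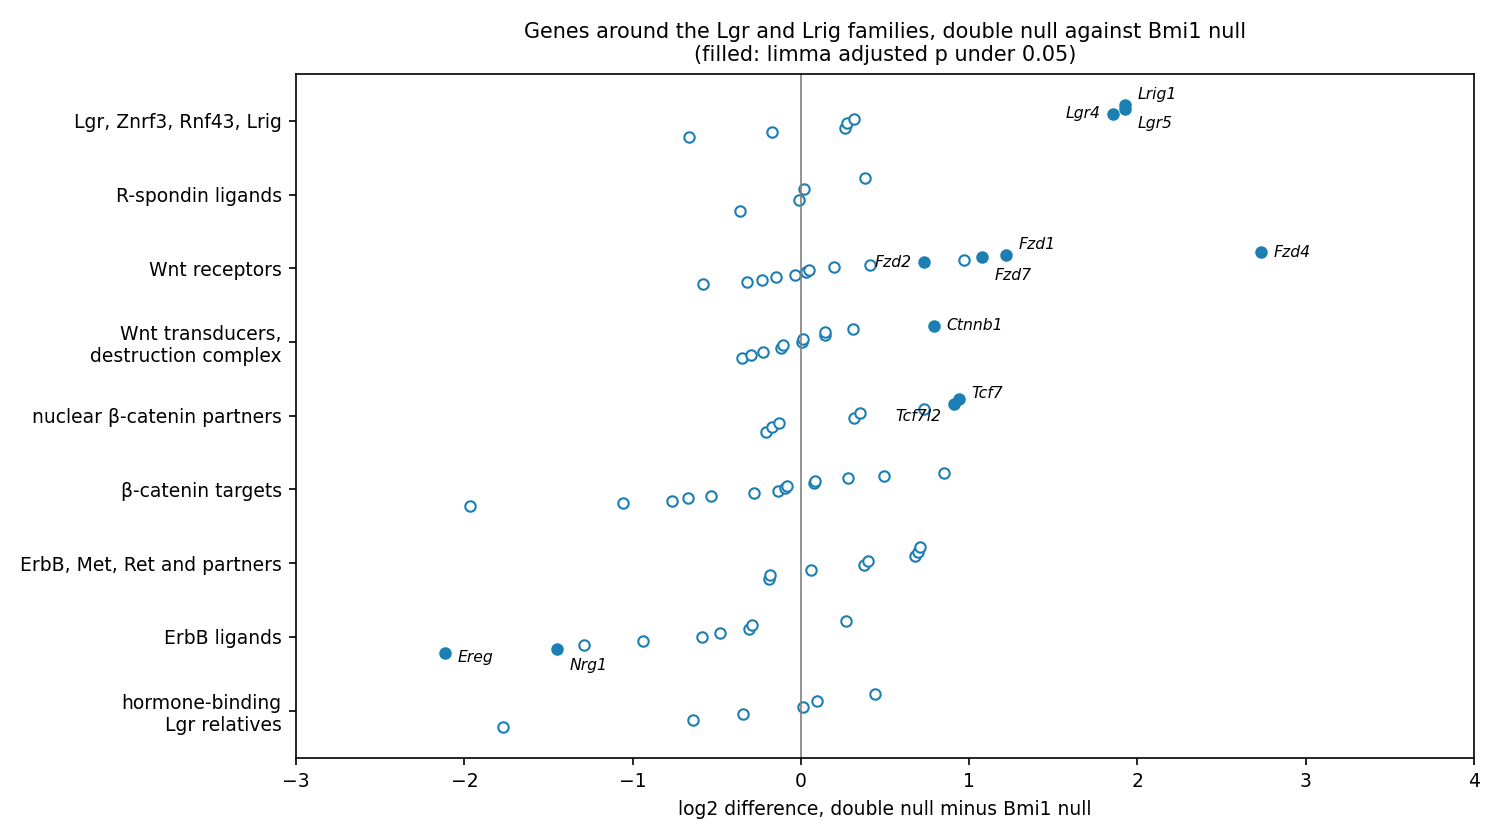
Log2 difference of double null minus Bmi1 null colonies for the 8 genes (top row) and the 74 tested genes of the lists around them, 1 point per gene; filled points, with names, passed the test at a limma adjusted p under 0.05. Lgr4, Lgr5 and Lrig1 lie at 1.85 to 1.93, Fzd4 at 2.74, and the ErbB ligands Ereg and Nrg1 at -2.11 and -1.45.

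Against wild type most Wnt transducers were higher and other groups mixed, with most genes of the array called. Of all genes 25.2% were called higher and 58.3% lower in Bmi1 null colonies, and 25.7% and 59.7% in the double null. Of 11 transducers 10 were called higher in Bmi1 null colonies and 11 in the double null, and on the centred scale 11 in both. In the authors' processed values 8 were called higher and 1 lower in Bmi1 null colonies, and 8 and 0 in the double null. The lower one was Ctnnb1, at -1.17 (limma adjusted p = 8.5e-05). Its difference in Bmi1 null colonies was -0.06 before centring and 1.07 on the centred scale, so its sign depends on the processing. Gsk3b and Axin1, parts of the β-catenin destruction complex, rose by 2.92 ± 0.22 and 2.76 ± 0.19 in Bmi1 null colonies (SE), and by 2.62 and 2.77 in the double null. Csnk1a1, a kinase of the same complex, rose by 2.12 in Bmi1 null colonies, and Amer1, its membrane anchor, by 2.20 in double null colonies. Of 14 Wnt receptors 6 were called higher and 5 lower in Bmi1 null colonies, and 6 and 4 in the double null. On the centred scale these counts were 9 higher and 3 lower, and 10 and 2. Fzd9 was lower by 3.38 ± 0.35 (SE) in the Bmi1 null, and 3.35 ± 0.35 in the double null, with -2.26 and -2.10 as its differences on the centred scale. Fzd4, called higher in the comparison of the mutants, differed by -2.42 between Bmi1 null and wild type, but by -0.21 in the authors' processed values, which did not pass. Lrp5, a Wnt co-receptor, fell by 2.01 in Bmi1 null colonies, a call not held on the centred scale (limma adjusted p = 0.061). In double null colonies Fzd7 rose by 2.66 and Fzd10 fell by 2.43.

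Among nuclear partners Lef1, a transcription factor needed for tooth development, fell by 3.38 ± 0.23 in Bmi1 null colonies and by 3.59 ± 0.24 (SE) in the double null, with -2.25 on the centred scale in both. Tcf7 fell by 1.32 in Bmi1 null colonies, but by 0.19 on the centred scale, which did not pass. Pygo1 was well above background on 0 Bmi1 null arrays and at least 3.78-fold lower there, but in the authors' processed values its difference was 0.0556 and did not pass (limma adjusted p = 0.69). Pygo2 rose by 1.63 in double null colonies. Of 14 β-catenin targets 3 were called higher and 8 lower in Bmi1 null colonies, but 4 higher and 3 lower on the centred scale. Dkk1, a secreted Wnt inhibitor, fell by 3.14 and Nkd1, an intracellular one, by 2.46, while Myc rose by 2.48. In the authors' processed values Nkd1 differed by -0.23 and did not pass (limma adjusted p = 0.14), and Dkk1 fell by 0.65. In double null colonies 4 targets were called higher and 7 lower, but 5 higher and 5 lower on the centred scale. Wif1, another secreted Wnt inhibitor, was well above background on 0 double null arrays and at least 6.68-fold lower there than in wild type; in the authors' processed values it differed by -0.37 and did not pass (limma adjusted p = 0.13).

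The receptors that Lrig proteins act on were mostly called against wild type, as were most genes of the array. Of 8 tested genes, ErbB receptors, Met, Ret and partners, 5 were called higher and 2 lower in each mutant. On the centred scale these counts were 6 and 2 in the Bmi1 null, and 6 and 1 in the double null. Egfr rose by 2.18 ± 0.23 in Bmi1 null colonies (SE). Erbb2 and Erbb3 rose by 2.87 ± 0.28 and 2.28 ± 0.22 in double null colonies. Ret was well above background on 4 wild-type arrays but on 2 Bmi1 null arrays and 1 double null array, so the size of its fall is uncertain. Its log2 differences from wild type were -4.57 and -4.76, but -1.58 and -1.66 in the authors' processed values, all past the test. Erbb4 fell by 2.38 in Bmi1 null colonies, and its difference in the authors' processed values was -0.01. Between the mutants 0 of 8 passed in limma, with 4 higher and 0 lower at an unadjusted p under 0.05, and on the centred scale 1 was called higher, Errfi1, an inhibitor of ErbB receptors named after its values were seen, by 0.80 (limma adjusted p = 0.046).

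The ErbB ligands had calls between the mutants. Of 9 tested 2 were called lower and 0 higher in double null against Bmi1 null colonies, with 5 lower and 0 higher at an unadjusted p under 0.05 in limma. The shares called over all genes were 4.62% lower and 2.81% higher. Ereg, epiregulin, fell by 2.11 ± 0.38 (SE; limma adjusted p = 0.0064) and Nrg1, neuregulin, by 1.45 ± 0.34 (limma adjusted p = 0.023). In Bmi1 null against wild type Nrg1 and Epgn rose by 2.87 and 2.64, and Nrg4 fell by 2.14. In double null colonies Nrg4, Egf and Ereg fell by 3.08, 1.86 and 1.79 against wild type. The calls of Egf and Ereg did not hold on the centred scale (limma adjusted p = 0.054 and 0.23).

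The hormone receptors nearest to the Lgr family were examined beside it: Tshr, Fshr, Rxfp1 and Rxfp2 carry leucine-rich repeats as the Lgr receptors do, and Rxfp3 and Rxfp4 are relaxin family receptors without them. They were called lower in both mutants for 6 of 6 tested genes, where 58.3% and 59.7% of all genes were called lower. On the centred scale 3 of 6 were lower in each, Rxfp2, Rxfp3 and Rxfp4, of which Rxfp2 alone carries the repeats. Rxfp4 and Rxfp2, relaxin family receptors, fell by 3.21 and 2.26 in Bmi1 null colonies. Rxfp3 differed by -3.2 in Bmi1 null colonies, where it was well above background on 2 arrays, a call lost in the authors' processed values (-0.45; limma adjusted p = 0.066). Before centring Rxfp3 was at least 9.87-fold lower in double null colonies, where it was well above background on 0 arrays. That bound is no minimum under other processing. In the authors' processed values the log2 difference of Rxfp3 between double null and wild type was -1.03, which passed the test (limma adjusted p = 0.00047). Between the mutants 0 of 6 passed in limma, with 1 lower at an unadjusted p under 0.05.

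Markers of cell types moved in the wild-type comparisons. Of all genes 58.3% were called lower and 25.2% higher in the Bmi1 null, and 59.7% and 25.7% in the double null. Markers of dental epithelium were called higher for 9 of 10 genes in each mutant on both scales. Their summed linear level was 145 to 424 on wild-type, 523 to 727 on Bmi1 null and 514 to 969 on double null arrays. Immune markers (7 tested) were called lower in both mutants for 7 of 7 genes on both scales, and their summed linear level was 8.53 to 10.3 on wild-type, 0.655 to 1.01 on Bmi1 null and 0.588 to 1.09 on double null arrays. Endothelial markers were called lower for 6 of 6 in each mutant (6 and 4 on the centred scale), at 2.10 to 2.45, 0.356 to 0.556 and 0.389 to 0.923. Melanocyte markers were called lower for 5 of 5 in each (4 and 5 centred), at 3.97 to 4.25, 0.608 to 1.01 and 0.497 to 0.747, with Tyr and Tyrp1 well above background on 0 mutant arrays. Neural and glial markers were called lower for 5 of 5 in the Bmi1 null and 4 of 5 in the double null, at 10.1 to 12.9, 3.82 to 4.86 and 4.44 to 4.6, but on the centred scale for 0 of 5 in either, with 1 higher in the double null. Ameloblast markers were lower for 5 of 6 in each mutant on both scales, at 3.35 to 7.44, 0.730 to 3.90 and 0.993 to 4.83. The other, Odam, was called higher in the double null on the centred scale, by 3.46 (limma adjusted p = 0.0081). Mesenchymal markers were lower for 5 and 4 of 10, at 11.7 to 14.2, 5.15 to 9.99 and 5.23 to 40.7. Centring turned the mesenchymal counts to 2 higher and 2 lower in the Bmi1 null, and 3 and 1 in the double null. Incisor epithelial stem cell markers (10 tested, Lgr5 and Lrig1 among them) were mixed, with 3 higher and 6 lower in the Bmi1 null, and 5 and 4 in the double null. On the centred scale these counts were 3 and 5, and 5 and 4. Sox2, Trp63 and Acta2 were called higher and Gli1, Sfrp5, Ptch1 and Bmi1 lower in both mutants. The part of these markers in the wild-type comparisons of the 8 genes and the R-spondins was not tested.

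Between the mutants 0 markers of the immune, endothelial, melanocyte, neural and glial, ameloblast and mesenchymal lists passed in limma, with at most 2 genes of a list past an unadjusted p under 0.05. Of 10 dental epithelium markers Epcam alone was called, higher by 1.73 ± 0.34 in double null colonies (SE). Of 10 incisor epithelial stem cell markers 3 were called higher, Lgr5 and Lrig1 themselves and Igfbp5, an IGF-binding protein, by 4.92 ± 0.60. The other 7 were not called, Sox2, Gli1, Sfrp5, Ptch1 and Trp63 among them. The shares over all genes were 2.81% higher and 4.62% lower. The summed level of that list was 53.4 to 81.0 on Bmi1 null and 69.4 to 168 on double null arrays; its brightest member was Acta2, smooth muscle actin, with means of 5.91 and 6.36 on the log2 scale, so the sum says little of the other members.

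The genes whose levels ran most like those of a member over the 12 arrays were found among 13327 genes well above background on all arrays, by Pearson correlation, as a description; the points share the genotype means and the scaling of each array. For Lgr4 they were Sphk1 (r = 0.969), a sphingosine kinase, and Mcm5 (r = 0.959), a subunit of the replicative helicase. Mcm5 had means of 0.06, 0.07 and 1.34 in wild-type, Bmi1 null and double null colonies. For Lrig1 they were Ppm1l (r = 0.960), a protein phosphatase, and Mme (r = 0.929), the membrane peptidase neprilysin, with means of -3.29, -4.39 and -0.67. For Lgr6 they were Trim65 and the olfactory receptor Olfr801 (r = 0.992 for both); Trim65 had means of 1.27, -0.94 and -1.24. Lrig2 ran most like Prdx6b (r = 0.930) and Zzz3 (r = 0.908), Lrig3 like Rce1 (r = 0.952) and Slc25a27 (r = 0.948), and Znrf3 like Ahctf1 (r = 0.931) and Hnrnpa1 (r = 0.925). Lgr5 and Rnf43 were not well above background on all 12 arrays and were not compared in this way.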

How the data were processed

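Total RNA (Qiagen RNeasy) was amplified and labelled with Cy3 before hybridisation to 1-colour Agilent arrays of the mouse genome, per the labels' protocols. The authors deposited scanner output whose processed signal is a background-subtracted intensity, per the file headers, and a table of processed log2 values of the same arrays. Its scale was checked against the spot signals (r of at least 0.992 on every array, column medians 7.21 to 7.24); no source used here gives its normalization.

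Groups and replicate numbers came from the sample titles. Control spots were left out and spots marked as outliers set missing. From the log2 of each signal the 75th percentile of its array was subtracted. Probes well above background on at least 3 of 4 arrays of a genotype were kept (39338). For a probe kept through the wild type alone, as for Rspo2, Rspo3, Pygo1, Wif1 and Rxfp3, this favours a lower mutant level. The brightest probe stood for a gene. Accessions were named through a RefSeq table of GRCm38.p6 (24844 probes with 1 symbol, 0 with several, 16330 with none).

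All 12 arrays entered 1 limma fit (limma 3.58.1, R 4.3.3; 3 contrasts, two-sided, Benjamini-Hochberg over 31064 genes, 9 residual degrees of freedom). The script was tested on simulated data with known changes. The members and lists were chosen with earlier results of these data known. Members are always named, and from each context list up to 3 called genes with the largest change per contrast, plus any R-spondin. Alternatives covered background, scaling, filter, probe choice, slide, replicate number and each array left out. The normexp alternative used the spot's median signal with an offset of 50, because the files given hold no mean signal column. The number of arrays limits the precision.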

Additional observations from a re-analysis of the deposited data

Results flagged for a closer look

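Of 33 sets of 4 values examined for a single far value, 2 stood out, where chance gives about 1 in 20. Znrf3 in double null replicate 4 read -2.96, away from the nearest double null colony at -2.49, a gap of 0.907 of the whole range. Double null replicate 1 had 1336 spots that the scanner software marked as outliers, against 102 on the next highest double null array.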

How the results depend on the processing

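The sign of some wild-type differences, listed below by gene, depended on the scaling, and the calls between the mutants on the slide and on which arrays shared the estimate of spread. Of the 8 genes, 1 was called higher in Bmi1 null against wild-type colonies, 0 with normexp background, 3 with quantile normalization, and 4 with median scaling, with the authors' processed values or with arrays centred on the median gene (the last added after the data were seen). The 3 called lower were 1 when probes had to be well above background on all 12 arrays, where 6 of the 8 genes were tested. In double null against wild type the 5 called higher were 3 with slide as a block, and the 2 called lower were 1 with normexp, quantile normalization, the authors' values, probes well above background on all arrays, or centring. Between the mutants the 3 called higher were 0 with slide as a block and 1 with only these 2 genotypes fitted, and they stayed 3 with each array left out.

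Of the context genes, 32 were called lower in Bmi1 null against wild type, 21 with quantile normalization, 18 with the authors' values or centring and 19 with probes well above background on all arrays (61 tested). In double null against wild type 29 were lower, 17 with the authors' values or that filter and 18 with centring. Between the mutants 7 were higher and 2 lower: 3 higher with normexp or quantile normalization, 5 lower with the mean of a gene's probes, 0 and 0 with slide as a block, and 2 and 1 with only these genotypes. Leaving out 1 array gave 3 to 7 higher and 1 to 4 lower.

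Reversed signs were as follows. For Lgr4 in Bmi1 null against wild type (-0.01) the difference was 0.0354 with normexp, 0.93 with median scaling, 0.43 with quantile normalization, 0.78 in the authors' values, 0.49 as the mean of its probes, 0.0853 with slide as a block, 0.0118 with the replicate number as a block, 1.11 with centring, and -0.13 to 0.15 with 1 array left out. For Lrig1 in that comparison (-0.64) it was 0.30 with median scaling, 0.77 with quantile normalization, 0.51 in the authors' values and 0.49 with centring. For Znrf3 (0.30) it was -0.22 with normexp, and for Rnf43 (-1.27) 0.24 with quantile normalization and 0.18 in the authors' values. For Lgr5 in double null against wild type (-0.85) it was 0.18 with median scaling, 0.65 with quantile normalization, 0.49 in the authors' values and 0.39 with centring. For Rnf43 between the mutants (-0.67) it was 0.29 with normexp. The cause was not tested.

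The replicate numbers were not taken as pairs: deviations of same-numbered arrays correlated at -0.141 to 0.216 (10 pairs across genotypes), and those of other pairs at -0.233 to 0.217. With the replicate block, 512 genes were called higher and 836 lower between the mutants in place of 872 and 1436, Lgr4, Lgr5 and Lrig1 stayed called, 3 context genes were higher and 1 lower, and Lrig2 in double null against wild type was 0.55 (limma adjusted p = 0.070).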
